A study of Mus musculus and Homo sapiens with 22 samples.

Results

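The last-exon m6A sites near stop codons of mouse embryonic stem cells (mESCs) are 7161 of the 25456 sites in the mESC list, or 28.1%. A site was a member when it lay in the last exon of the longest coding transcript of its gene, that transcript had 2 or more exons, and the site was within 200 nt of the stop codon along the transcript. Of the list, 24462 sites fell in an exon of the longest coding transcript chosen for a gene, single-exon transcripts included. From the sites that met the rule, 47 were left out because they lay in the last exon of several genes. The members came from 3840 genes, out of 6472 genes with any site in their chosen transcript. Distances from the stop codon are counted from 1 at the first base outside it on either side, and distances from the last exon-exon junction from 1 at the first base of the last exon.

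The mapping method, miCLIP2, crosslinks an m6A antibody to poly(A)+ RNA by UV light and reads the modified base from where reverse transcription stops. The sites were predicted by m6Aboost, a machine learning classifier that gives each site a score between 0.5 and 1 in this list. The mESC list joins 3 replicates of wild-type (WT) cells and gives neither a spread between replicates nor a read depth, so the intervals below cover counting error only. They count the motifs or sites of the same gene as independent, so they may be too narrow. Sequence and transcript region were among the features the classifier read, so that differences in motif, in region and in score were in part built into the list. The study trained the classifier on peaks of these same mESC data, chosen by comparing miCLIP2 of WT with that of Mettl3 knockout cells. The list and its scores are thus independent neither of that training nor of the knockout. Lists of HEK293T cells (human, from embryonic kidney) and of purchased mouse heart RNA (1 library) were used by position. They came from the same classifier, so agreement with them at the same base or pentamer was also in part built in. RNA-seq counts came from 3 WT and 3 Mettl3 knockout (KO) mESC libraries, and the gene knocked out encodes the main m6A methyltransferase. Both genotypes were earlier mESC lines grown in serum with LIF, the number of KO clones is not given in the sources used here, and the study calls the miCLIP2 replicates biological without saying how those of the RNA-seq were grown. The p-values measure the spread between these libraries.

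In mammalian mRNA, m6A is written in the nucleus by a complex of METTL3, METTL14, WTAP and partner proteins, mostly at the DRACH consensus (D is A, G or T, R is A or G, H is A, C or T). The mark is known to gather in long internal exons and in the last exon around the stop codon, and exon junction complexes are known to keep the writer from RNA close to splice junctions. Reader proteins of the YTH family bind the mark and among other roles speed the decay of marked transcripts.

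The sequences below come from the 4 highest-scoring members before the stop codon and the 4 after it, at most 1 per gene, because they show the motif on each side of the stop. Dlc1 and D8Ertd738e are named without sequence. Each is 21 nt of the transcript, read 5′ to 3′, with the 5 nt centred on the methylated A in capitals. They were taken from the GENCODE M21 transcripts with GRCm38 positions, and those before the stop codon are coding sequence, those after it 3′ UTR.
Snx11, chr11:96769217-96769237, minus strand: ccagtgatGGACTctgagggc
Serinc3, chr2:163625475-163625495, minus strand: ttacctctGGACTcttgtggc
Slc9a3r1, chr11:115180481-115180501, plus strand: agaaaaatGAACTcttcagca
Txndc17, chr11:72209493-72209513, plus strand: accttgccGGACTgtggtggc
Ncl, chr1:86350567-86350587, minus strand: taaagaaaGGACTctggggtt
Cenpa, chr5:30674194-30674214, plus strand: gctcccatGGACTcgagtgtt
Of the 4 before the stop codon, Snx11 (a sorting nexin) lay 179 nt from it, Dlc1 (a RhoGAP) 82 nt, Serinc3 42 nt and Slc9a3r1 16 nt. Their scores ranged from 0.970 to 0.976. The 4 after it all scored 1 and all held GGACT, at 11 nt in D8Ertd738e, 20 nt in Txndc17 (a thioredoxin domain protein), 43 nt in Ncl (nucleolin) and 183 nt in Cenpa (the centromeric histone H3 variant). The member in Dlc1 lay 37 nt from the last junction, and the other 7 lay 89 nt or more from it.

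A second set shows members in which the methylated A is the last base of the stop codon itself, which occupies the first 3 capitals. The 6 with the highest scores were in Rabif, Usf1, Unc119b, Tbl2, Fhod3 and Mapkapk3, and 5 of them are shown.
Rabif, chr1:134506311-134506331, plus strand: cccatgagTAACTgtggggct
Usf1, chr1:171418111-171418131, plus strand: acagcaacTAACTctggggac
Unc119b, chr5:115125378-115125398, minus strand: gaggccagTAACTgctgcggg
Tbl2, chr5:135159672-135159692, plus strand: tgaagaagTGACTctggctcc
Mapkapk3, chr9:107256173-107256193, minus strand: acaaccagTAACTcatggtgc
TAACT was the pentamer in Rabif (score 0.944), Usf1 (0.907), Unc119b (0.906) and Mapkapk3 (0.876), and TGACT in Tbl2 (0.898) and Fhod3 (0.878). Rabif is a chaperone of Rab GTPases, Usf1 a transcription factor and Mapkapk3 a kinase downstream of p38.

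Members lay after the stop codon more often than before it. There were 4581 members after it (64.0%), 2524 before it (35.2%) and 56 in it (0.782%). Members only after the stop codon were found in 2078 genes, only before it in 966, and on both sides in 781. In 25-nt bins their number rose from 180 at 176 to 200 nt before the stop codon to 558 in the last 25 nt, was 727 and 726 in the first pair of bins after it, and fell to 421 at 176 to 200 nt after it. Part of this shape is room: of the 6346 transcripts with 2 or more exons in genes with a site, 95.7% had the stop codon in the last exon, with a median of 156 nt of that exon before it, and 2394 had last exon 188 nt before the stop codon against 5938 that had it 188 nt after. In 77 genes the stop codon itself lay in an earlier exon, and these held 111 members, all after the stop.

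The share of DRACH motifs that carry a listed site takes the room and the motif supply into account. In genes with at least 1 mESC site, 6625 of 46323 DRACH motifs in this window were listed, or 14.3% (Wilson 95% interval 14 to 14.6). Before the stop codon the share was 12.4% (12 to 12.9; 2353 of 18905), after it 16.0% (15.5 to 16.4; 4216 of 26398), and in it 5.49% (4.25 to 7.06; 56 of 1020). The 3 intervals do not overlap. From 200 to 26 nt before the stop codon the share stayed between 11.2% and 13.3% in each bin. It was 15.1% in the last 25 nt of the coding sequence and 18.7% in each of the first 2 bins of the 3′ UTR, and then fell to 12.9% at 176 to 200 nt.

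**Figure D1:**
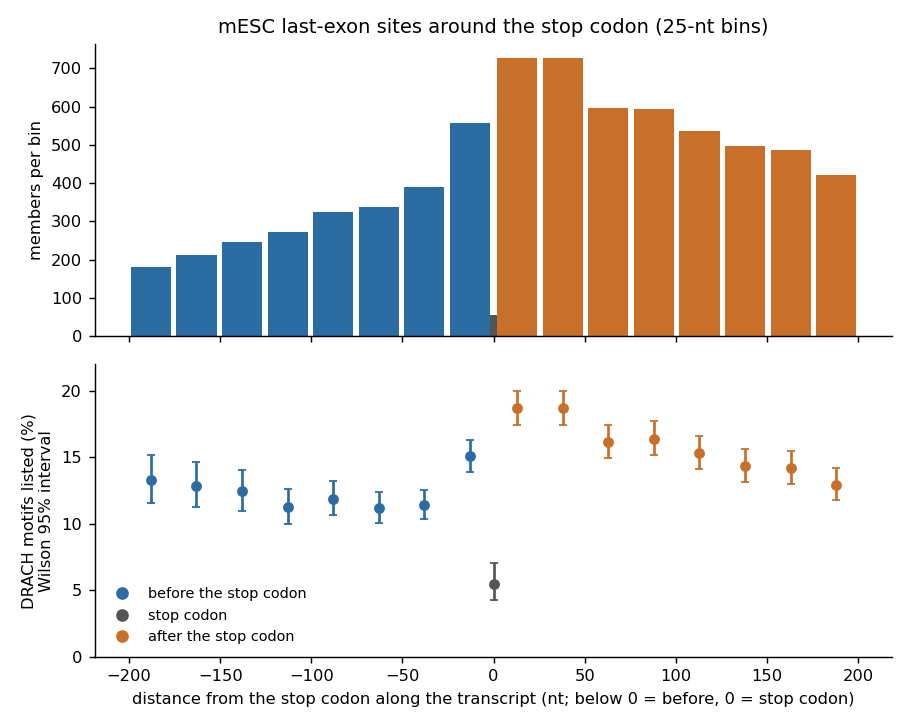
Number of members (upper panel) and share of DRACH motifs with a listed site (lower panel, percent with Wilson 95% intervals) in 25-nt bins of distance from the stop codon along the transcript, with the stop codon as a bin of its own. The count peaks at 727 and 726 members in the first 50 nt after the stop codon, and the share drops to 5.49% in the stop codon between 15.1% just before and 18.7% just after it.

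Elsewhere in the same genes, the listed share was 10.8% (10.4 to 11.2) for motifs of the last exon more than 200 nt before the stop codon and 3.27% (3.19 to 3.35) for those more than 200 nt after it. In internal coding exons it was 10.0% (9.74 to 10.3) where the exon had 400 nt or more and 0.898% (0.854 to 0.944) where it was shorter. The members' share of 14.3% lay above each of these, with no overlap of the intervals, but the places were not matched for distance from a junction.

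The distance from the last junction divided the members more sharply than the side of the stop codon did. Of all DRACH motifs in the window, 11% lay less than 50 nt from the junction, but only 2.78% of the members did. Before the stop codon the listed share was 3.43% (2.94 to 4.01) under 50 nt from the junction, 9.64% at 50 to under 100 nt, 13.7% at 100 to under 150 nt, 18.1% at 150 to under 200 nt and 20.9% (19.3 to 22.6) at 200 to under 400 nt. After the stop codon it was 6.23% (4.55 to 8.47) under 50 nt, 11.6% at 50 to under 100 nt, 18.4% at 100 to under 150 nt and 19.2% (18.1 to 20.5) at 150 to under 200 nt. On both sides the share thus rose along the first 200 nt of the last exon, with no overlap between the intervals of the first and the fourth bin. In 10-nt steps over both sides the share was 2.43% in the first 10 nt, 4.42% at 41 to 50 nt, 14.6% at 91 to 100 nt and 19.6% at 191 to 200 nt. Farther out it was lower: at 800 nt or more from the junction it was 14.3% (12.8 to 15.9) before and 9.36% (8.31 to 10.5) after the stop codon, and over all motifs from 400 nt on it was 17.0% and 11.9%.

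The same rise was seen for a single pentamer. GGACT before the stop codon was listed in 20.7% of its motifs (16.4 to 25.9; 57 of 275) under 50 nt from the junction and in 56.2% (49.7 to 62.6; 126 of 224) at 100 to under 150 nt. Other DRACH pentamers on that side went from 2.28% to 10.1% between the same bins. The score of the members moved less along the last exon. Its median was 0.710 under 50 nt from the junction, 0.721 at 150 to under 200 nt and 0.70 at 800 nt or more before the stop codon, and 0.790, 0.814 and 0.791 after it.

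**Figure D2:**
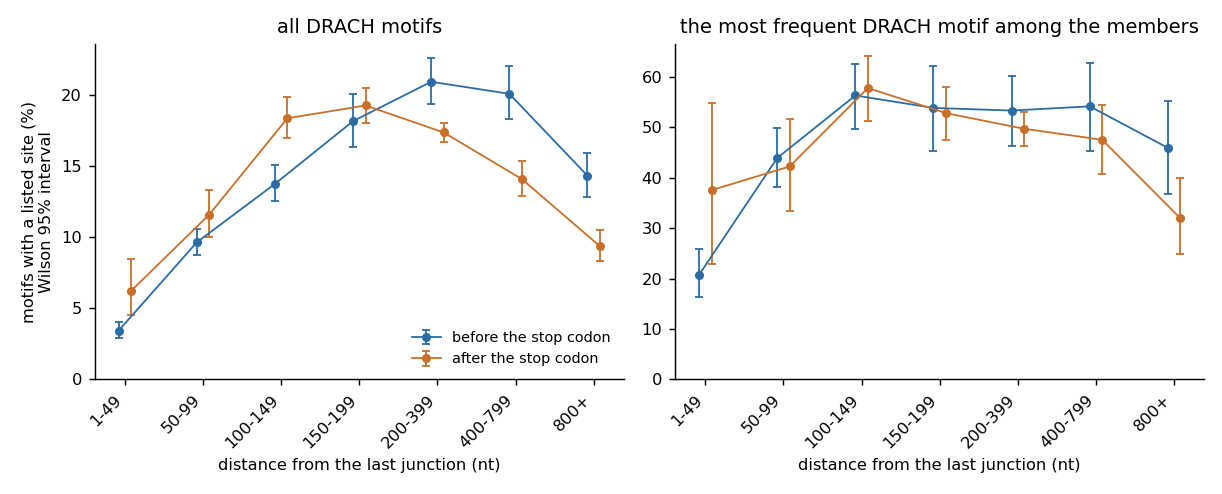
Share of motifs with a listed site (percent, Wilson 95% intervals) by distance from the last exon-exon junction, before and after the stop codon, for all DRACH motifs (left) and for the pentamer found most often among the members (right). Before the stop codon the share rises from 3.43% under 50 nt to 20.9% at 200 to under 400 nt, and for the single pentamer from 20.7% to 56.2% at 100 to under 150 nt.

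Within a fixed range of 200 to under 400 nt from the junction, the listed share still varied with distance from the stop codon. Upstream of the window it was 14.1% (12.8 to 15.5) at more than 400 nt before the stop codon. At more than 200 and up to 400 nt before it, the share was 22.4% (19.9 to 25.1). Inside the window it was 24.3% (21.5 to 27.3) at more than 100 and up to 200 nt before the stop codon. It was 19.3% (17.4 to 21.3) in the last 100 nt before the stop codon and 20.1% (18.9 to 21.2) in the first 100 nt after it. The interval of the 22.4% overlapped each of these in the window. The share was then 15.8% (15.0 to 16.6) in the next 100 nt after the stop codon and 11.8% (11.1 to 12.6) farther down. Over the whole window at this distance from the junction, 20.9% (19.3 to 22.6) of the motifs before and 17.4% (16.7 to 18) of those after the stop codon were listed, the opposite order to the window at all distances. Motifs before the stop codon lay closer to the junction, at a median of 118 nt against 255 nt.

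The length of the 3′ UTR was associated with the share after the stop codon mainly where it was short. In transcripts with a 3′ UTR under 200 nt, 7.07% (5.67 to 8.78) of the motifs after the stop codon were listed, against 18.5% (17.3 to 19.8) with 200 to under 500 nt and 15.3% (14.5 to 16.0) with 2000 nt or more. The share before the stop codon differed less over these classes, from 11.5% to 13.2%. The listed share also varied with expression. Genes with DRACH motifs in the window were split into 4 classes of equal size by their WT CPM (reads scaled to the size of the library), and the share after the stop codon was 12.3% (11.6 to 13.1) in the lowest class and 18.8% (17.8 to 19.7) in the highest. In rising order of class it was 10.7%, 11.8%, 14.2% and 13.6% before the stop codon, and in the stop codon 2.16%, 7.69%, 7.64% and 4.23%. Under 50 nt from the junction the share was 1.92% (1.22 to 3.02) in the lowest and 5.29% (4.27 to 6.54) in the highest class, beside 14.3% (13.2 to 15.5) and 19.7% (18.4 to 21.1) at 200 to under 400 nt from the junction in the same classes. The share near the junction was the lower one in each of the 4 classes.

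Of the members, 92.5% (6625) lay in a DRACH motif, with 93.2% before and 92.0% after the stop codon. GGACT made up 21.4% of all members (1532), AGACT 13.6% (977), GAACT 13.6% (974) and GGACA 11.1% (793). The share of motifs listed differed widely between pentamers: 47.2% of GGACT motifs in the window were listed (45.5 to 48.9), 36.8% of GAACT, 30.9% of AGACT and 21.4% of GGACA, against 1.27% of AAACA and 0.918% of AAACC. Each of the first 4 was listed more often after the stop codon than before it, AGACT in 34.9% (32.7 to 37) against 24.8% (22.5 to 27.3). For GGACT it was 49% (46.7 to 51.2) against 44.7% (42.0 to 47.3), with overlap. By distance from the junction, GGACT was higher after the stop codon only under 50 nt (37.5% against 20.7%) and at 100 to under 150 nt (57.7% against 56.2%). In the other bins it was lower, as at 200 to under 400 nt (49.7% against 53.3%), and the intervals overlapped in every bin. Outside DRACH, GGACG held 138 members, GTACT 110 and GGATT 65.

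All 56 members in the stop codon sat on its last base, since a DRACH motif there needs TGA or TAA followed by C. TGACT held 35 of them, TAACT 12, TGACA 6 and TGACC 3, and TAG cannot form the motif. The low share of the stop codon as a whole came with this pentamer make-up. For TGACT, 17.0% (12.5 to 22.7; 35 of 206) of the motifs in a stop codon were listed, against 16.7% (14.5 to 19.1) of TGACT motifs before it and 22% (20.1 to 24.1) after it. For TAACT the 3 shares were 10.5% (6.12 to 17.5), 10.5% (7.44 to 14.7) and 7.90% (6.35 to 9.79). For both pentamers the intervals of the stop codon overlapped those of the flanks, so a difference was not detectable at these counts. No TAACA or TAACC stop codon was listed (0 of 87 and 0 of 99), which by the Wilson interval allows up to 4.23% and 3.74%.

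Before the stop codon the members can be read in their codons. The methylated A was the second base of its codon in 1303 of 2524 members, the third in 675 and the first in 546. The lead of the second base followed the motif supply, since 51.1% of the DRACH motifs there placed their A at it. The third and first base stood in the opposite order to their supply of 22.4% and 26.6%. Of the motifs with A at base 2, 12.5% (11.8 to 13.1) were listed, against 14.9% (13.8 to 16.0) at base 3 and 10.4% (9.56 to 11.3) at base 1. For GGACT alone the shares were 43.8%, 44.2% and 47.8%, and their intervals overlapped. The codon that held the methylated A was GAC (aspartate) in 1011 members, ACT (threonine) in 387, AAC (asparagine) in 261 and GGA (glycine) in 241.

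The scores were higher after the stop codon. The median was 0.807 (quartiles 0.715 and 0.876) after it and 0.717 (0.625 and 0.806) before it, and 16.1% against 4.44% of the members scored at least 0.9. With GGACT alone it was 0.876 after and 0.764 before the stop codon. Over the bins of distance the median lay between 0.698 and 0.728 before and between 0.794 and 0.816 after the stop codon, with no steady trend on either side. Region is one of the inputs of the classifier, and its part in this difference was not tested. The members in the stop codon had a median of 0.736, those outside DRACH 0.651, and the rest of the mESC list 0.733.

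**Figure D3:**
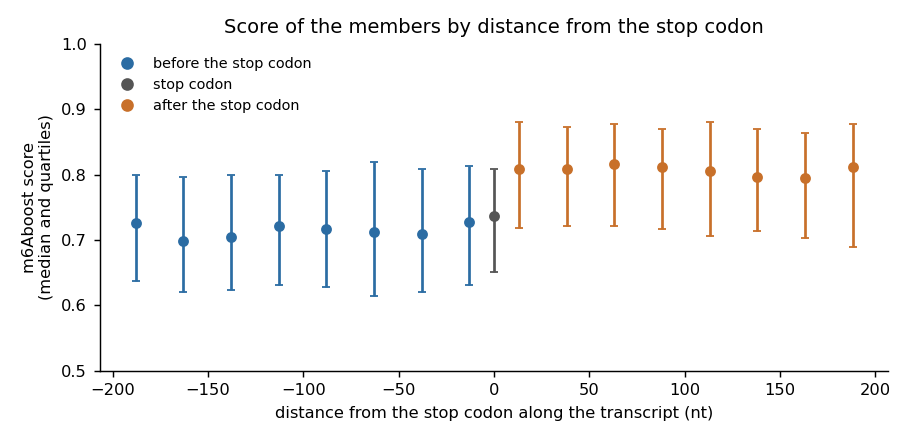
m6Aboost score of the members by distance from the stop codon in 25-nt bins (dots are medians, bars the lower and upper quartile; the axis starts at 0.5, the lowest score in the list). Bin medians lie between 0.698 and 0.728 before the stop codon and between 0.794 and 0.816 after it.

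Many genes held several members. A single member was found in 1878 genes (48.9%), 2 or more in 1962, and 5 or more in 127, with at most 10 in a gene. Neighbouring members of a gene were a median of 48 nt apart (quartiles 22 and 94), and 361 of 3321 neighbouring pairs (10.9%) were within 10 nt. Bag4, a co-chaperone of Hsp70, held the most, 5 on each side of the stop codon. They ran from 115 nt before to 147 nt after it, at 369 to 633 nt from the last junction, with scores of 0.702 to 0.932. Xxylt1, a xylosyltransferase that acts on Notch repeats, came next with 9, and all are shown in transcript order because they show how such a cluster is laid out, each with a C after its methylated A.
Xxylt1, chr16:30957515-30957535, minus strand: ggggaccaGGACTtcttcacc
Xxylt1, chr16:30957481-30957501, minus strand: agcaccctGAACTcttccatg
Xxylt1, chr16:30957464-30957484, minus strand: catgtgctGGACTgcacctgg
Xxylt1, chr16:30957425-30957445, minus strand: tggtggagGGACCatggctac
Xxylt1, chr16:30957356-30957376, minus strand: taccatggGAACTgcaacaca
Xxylt1, chr16:30957332-30957352, minus strand: atcccagaGGACTaggcacca
Xxylt1, chr16:30957272-30957292, minus strand: agaaagagAGACTctgctagg
Xxylt1, chr16:30957261-30957281, minus strand: ctctgctaGGACActctttag
Xxylt1, chr16:30957136-30957156, minus strand: agcccgaaGGACTgacacggg
The Xxylt1 members ran from 185 nt before to 192 nt after the stop codon, with scores of 0.620 to 0.963. The 4 members of Sh3bp4 after the stop codon (an adaptor of clathrin-coated pits) show another layout, with a GGACT every 21 or 22 nt.
Sh3bp4, chr1:89153377-89153397, plus strand: tggagttgGGACTctgcccac
Sh3bp4, chr1:89153398-89153418, plus strand: cagacctgGGACTccacccac
Sh3bp4, chr1:89153420-89153440, plus strand: agagcttgGGACTccacccac
Sh3bp4, chr1:89153441-89153461, plus strand: cagagctgGGACTtggcccat
They lay 36, 57, 79 and 100 nt after the stop codon and scored 0.991, 0.906, 0.896 and 0.893. Stc2 and Foxn2 held 8 like Sh3bp4, and Hspa5, Igsf3 and Traf4 held 7. In Foxn2, a forkhead factor, 3 members at 87, 91 and 95 nt after the stop codon were 4 nt apart, each with GGACG as its pentamer.

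Of the genes that the study names, 11 held members. Nanog, a pluripotency factor, had 3, at 167 and 155 nt before the stop codon (scores 0.579 and 0.738) and 2 nt after it (0.775). Ythdc1, the nuclear m6A reader, had 3, at 35 and 29 nt before and 156 nt after the stop codon, scored 0.697, 0.679 and 0.902. Ccnt2 (cyclin T2) had 4 before it and 1 after it at 182 nt, which scored 0.960. Phb2 (prohibitin 2) had 2, a GGACT 112 nt after the stop codon that scored 0.980 and an AGACT at 146 nt that scored 0.752. Oat (ornithine aminotransferase) had a GAACT 9 nt after it that scored 0.957 and a TGACT at 190 nt that scored 0.919. Mif4gd had 1 member 2 nt before the stop codon and 3 after it. The other 5, like Phb2 and Oat, had members after the stop codon only, 3 in Nip7, 2 in Hic2 and 1 each in Palm3, Eif4ebp1 and Zfp710.
The study names Nanog and Zfp710 for DRACH positions that SELECT, an antibody-free qPCR method, found unmodified. Its Nanog position is none of the members here. The GGACT member of Phb2 is at the position that the study found methylated by SELECT, where it prints the pentamer as GAACT. For the other genes that the study tested by SELECT, whether a member lies at the tested position is not given here. The Nanog, Ythdc1, Phb2 and Oat members are shown in transcript order, so that their positions can be read in sequence.
Phb2, chr6:124716735-124716755, plus strand: catgtgatGGACTtttctgta
Phb2, chr6:124716769-124716789, plus strand: attaaggaAGACTgagaccag
Nanog, chr6:122713376-122713396, plus strand: ccgctccaTAACTtcggggag
Nanog, chr6:122713388-122713408, plus strand: ttcggggaGGACTttctgcag
Nanog, chr6:122713547-122713567, plus strand: gaaatatgAGACTtacgcaac
Ythdc1, chr5:86835861-86835881, plus strand: tgtgatcgGGACAgagaccga
Ythdc1, chr5:86835867-86835887, plus strand: cgggacagAGACCgaggggag
Ythdc1, chr5:86836054-86836074, plus strand: tagaataaGAACTggaaaact
Oat, chr7:132558151-132558171, minus strand: gagagtagGAACTctggggag
Oat, chr7:132557970-132557990, minus strand: ttgaggttTGACTgtgtggga

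In mouse heart, 4779 of the 7161 members (66.7%, 65.6 to 67.8) were listed at the same base. Counting only members in genes with a heart site, 76.4% (75.3 to 77.4) were shared, against 65.9% (64.7 to 67.1) of mESC sites more than 200 nt after the stop codon, 72.4% (71.0 to 73.8) of those in long internal coding exons and 38.7% (36.0 to 41.5) of those in short ones. It was 75.1% (73.2 to 76.9) for last-exon sites more than 200 nt before the stop codon and 74.7% (70.5 to 78.5) in single-exon transcripts, whose intervals overlap that of the members. The intervals of the 3 places overlapped among DRACH motifs, counted where a gene had sites in mESCs and in heart: 78.3% (76.5 to 80.1) before, 77.4% (76.0 to 78.7) after, and 80.0% (67.0 to 88.8; 40 of 50) in the stop codon. Of the DRACH motifs of these genes that were not listed in mESCs, 9.28% (8.97 to 9.60) were listed in heart. Members shared with heart had a median mESC score of 0.802, the others 0.718.

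In HEK293T cells the same rule gave 9007 sites in 3839 genes. Genes were matched by symbol, and 3989 members in 1927 genes had a human counterpart with such a site. Before the stop codon, 605 of 1428 members (42.4%, 39.8 to 44.9) had a human site at exactly the same distance from the stop codon, in the stop codon 8 of 34, and after it 159 of 2527 (6.29%, 5.41 to 7.31). The pairs before the stop codon numbered 605 at a difference of 0 nt and between 1 and 30 at each other difference of up to 20 nt. Other differences that keep the reading frame had a mean of 16.3 pairs (12 differences) and those that shift it 7.50 (28 differences). After the stop codon the count fell off on both sides of 0, with 87 pairs at 1 nt and 77 at 2 nt closer to the stop codon in mouse, and 52 and 51 at 1 and 2 nt farther. A DRACH pentamer of the window was the same at the same distance in human for 46.7% of listed motifs before the stop codon and 6.59% after it. Among motifs not listed in mESCs it was the same for 40.8% before and 4.56% after the stop codon. Where it was, the human A was listed in 60.0% (56.5 to 63.3; 482 of 804) before and 58.4% (51.4 to 65.0; 115 of 197) after the stop codon, when the mouse motif was listed. When the mouse motif was not listed, the human A was listed in 11.4% (10.5 to 12.3) and 16.5% (13.8 to 19.5).

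**Figure D4:**
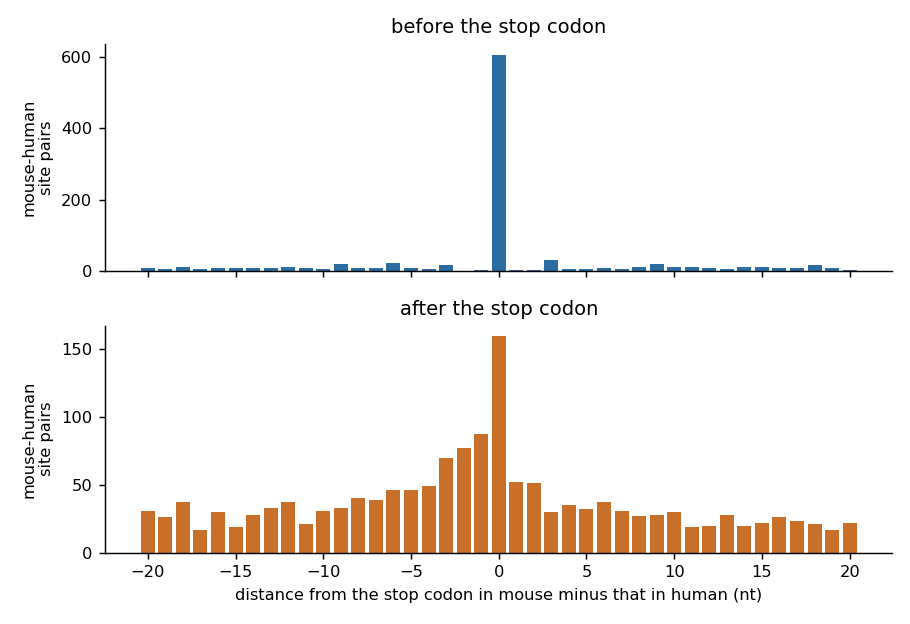
Number of mouse-human site pairs by the difference in distance from the stop codon (mouse minus human, in nt), for sites before (upper panel) and after (lower panel) the stop codon in genes matched by symbol. The bar at 0 stands for 605 pairs before and 159 pairs after the stop codon, against at most 30 and 87 pairs at any other difference shown.

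The pairs with the highest mouse scores are shown with the human sequence under the mouse one, because they let the bases around a site that both species list be compared. All lay in the 3′ UTR, human positions are on GRCh38 (GENCODE 44), and Dnajb1 and B4galt6, also among the 6 highest, are named only.
mouse Osbp, chr19:11992107-11992127, plus strand: ggcagttgGGACTcttaccga
human OSBP, chr11:59576492-59576512, minus strand: ggaagttgTGACTctcttacc
mouse Tle3, chr9:61416713-61416733, plus strand: ctgaacaaGGACTctaacagg
human TLE3, chr15:70050080-70050100, minus strand: ctaaacaaGAACTccagcagg
mouse Dynll2, chr11:87981361-87981381, minus strand: cgttgctgGGACTgttgcact
human DYNLL2, chr17:58089331-58089351, plus strand: cgttgctgGGACTgttttgca
mouse Actb, chr5:142903783-142903803, minus strand: ttctaggcGGACTgttactga
human ACTB, chr7:5527733-5527753, minus strand: ttctaggcGGACTatgactta
Of the 21 bases, 13 were the same in Osbp (an oxysterol-binding protein), 17 in Dnajb1 (an Hsp40 chaperone), Tle3 (a corepressor) and Dynll2 (a dynein light chain), and 18 in Actb (beta-actin). In B4galt6 it was 16. The pentamer itself differed in Osbp, Tle3 and B4galt6. The human scores were 0.863 in OSBP, 0.970 in DNAJB1, 0.937 in TLE3, 0.948 in DYNLL2, 0.893 in ACTB and 0.774 in B4GALT6.

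For the RNA-seq, gene counts per library lay between 22746733 and 27254245. Mettl3 itself had 560, 698 and 612 counts in the WT libraries, while those of KO held 462, 669 and 457. It fell short of the threshold at -0.50 ± 0.14 on the log2 scale (SE), where the adjusted p was 0.0134 by the quasi-likelihood test of edgeR after Benjamini-Hochberg adjustment (0.00281 with the replicate block, 0.00418 by DESeq2). Counts over the whole gene cover exons outside a deletion, so they check the label only in part. The mESC markers Pou5f1, Sox2, Nanog, Zfp42 and Esrrb summed to between 2264 and 2507 CPM in WT and between 2382 and 2467 CPM in KO. Esrrb came nearest to the threshold among them (edgeR adjusted p = 0.0106, 0.00191 with the replicate block). Of 18 feeder fibroblast markers, 8 were too low to test, among them Col1a2, Col3a1, Postn, Dcn and Lum. The other 10 summed to 3287, 3359 and 1983 CPM in WT and 1816, 2398 and 1478 CPM in KO, mostly from Fn1, and 3 of them rose and 2 fell. Their part in the results was not tested. In bulk libraries, fewer cells of a type and less RNA per cell cannot be told apart.

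Of the 3840 genes with members, 3827 were tested, and 1150 (30.0%) passed an adjusted p of at most 0.01, beside 29.7% of all 15731 genes tested. There were 664 higher in KO (17.4%, beside 17.1% of all genes) and 486 lower (12.7%, beside 12.6%). The median log2 fold change was 0.01, beside -0.02 for all genes. WT and KO ranges did not overlap in 2164 (56.5%), beside 56.1% of all genes. In these shares the genes with members lay near the background, which was not matched for level (median WT 53.8 against 14.9 CPM). In the highest of 4 classes of mean CPM, 15.0% of genes with members were higher and 14.2% lower, beside 9.66% and 24.8% of genes without members. The next lower class had 21.2% and 10.7%, beside 18.2% and 15.2%. In the class below that it was 16.0% and 11.6%, beside 21.6% and 11.2%. With the replicate number as a block, 1741 (45.5%) passed, beside 43.5% of all genes. Scaled by library size only, all genes moved up by 0.10 on the log2 scale, and the share of calls that were higher in KO went from 57.7% to 73.4% for genes with members and from 57.5% to 71.0% for all genes. Without KO replicate 1 the genes that passed numbered 627 (16.4%, beside 17.1% of all genes), without WT replicate 1 they numbered 725 (18.9%, beside 19.1%) and without KO replicate 3 they numbered 742 (19.4%, beside 19.3%), so the count dropped alike for all genes.

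Genes with more members leaned toward higher levels in KO. Of 1869 genes with 1 member, 14.6% were higher and 15.5% lower, with a median log2 fold change of -0.04. Of 1104 genes with 2 members, 17.1% were higher and 10.3% lower (median 0.05). Of 854 genes with 3 or more, 23.8% were higher and 9.72% lower (median 0.11), with medians of 0.14, 0.09 and 0.11 in the 3 KO libraries against the WT mean. By side, genes with members only before the stop codon had 21.9% higher and 9.75% lower (964 genes, median 0.10), those only after it 12.9% and 15.5% (2068 genes, median -0.05), and those with both 23.8% and 8.85% (780 genes, median 0.14). Scaled by library size only, the medians of the genes with 1 member and of those with members only after the stop codon turned positive, to 0.06 and 0.05. Relative to all genes of the same fit, the median of genes with 3 or more members was higher by 0.07 to 0.15 over all alternatives. No test of the difference between these classes of genes was run. They were not matched for the number of sites elsewhere in the gene. Genes with sites elsewhere only had 17.8% higher and 16.2% lower (2579 genes, median -0.03). The classes also differ in level, with median WT values of 41.3 CPM for genes with members only before and 56.1 CPM for those only after the stop codon.

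Genes were also split into 4 classes of equal size by their mean CPM over both genotypes, of which the lowest held 9 genes with members. In the highest class, 21.9% of 544 genes with 3 or more members were higher and 9.19% lower, against 10.9% and 18.9% of 926 genes with 1 member. Genes with members only before the stop codon had 18.1% higher and 12.8% lower there, those only after it 11.4% and 17.1%, and genes without members 9.66% and 24.8%. In the next lower class, genes with 3 or more members had 28% higher and 10.2% lower, and those with 1 member 18.9% and 12.3%. Genes with members only before the stop codon had 26.2% higher and 6.80% lower in that class, those only after it 15.7% and 13.4%, and genes without members 18.2% and 15.2%. In the class below that, 45 genes with 3 or more members had 22.2% higher and 13.3% lower, near the 21.6% and 11.2% of genes without members. Those with 1 member had 15.9% and 10.4% there. Genes with members only before the stop codon had 21.8% higher and 6.36% lower in that class, and those only after it 10.7% and 14.6%. Genes with 1 member thus had more lower than higher calls in the highest class and the reverse in the other classes given.

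**Figure D5:**
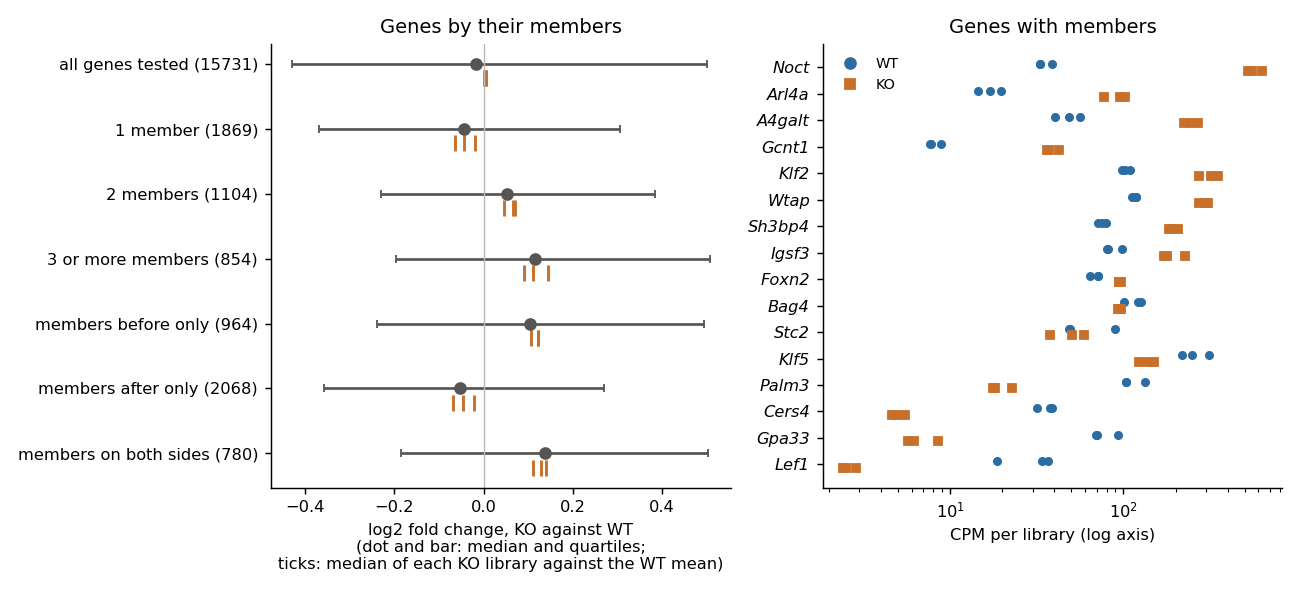
Left, log2 fold change of KO against WT for all genes tested and for genes grouped by number and side of their members (dots are medians, bars quartiles, orange ticks the median of each KO library against the WT mean, gene numbers in parentheses). Right, CPM per library on a log axis for 16 genes with members, where Noct is higher in all KO libraries and Lef1 lower, while Stc2 overlaps.

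Among the genes with most members, Sh3bp4 had 71.3, 74.9 and 79.6 CPM in the WT libraries and 192, 207 and 183 CPM in KO, a log2 fold change of 1.36 ± 0.10 (SE, adjusted p = 1.24e-05 by the quasi-likelihood test of edgeR after Benjamini-Hochberg adjustment). Igsf3, an immunoglobulin superfamily membrane protein, had 80.0, 81.3 and 98.3 CPM in WT and 179, 227 and 172 CPM in KO. The groups did not overlap for either gene, and Igsf3 was higher by 1.16 ± 0.14 on the log2 scale (edgeR adjusted p = 0.000134). Foxn2 was higher by 0.46 ± 0.10 (edgeR adjusted p = 0.00337), a call that was lost when WT replicate 1 or 2 or KO replicate 1 or 3 was left out (edgeR adjusted p of 0.0133 to 0.0217). Bag4 had 126, 100 and 122 CPM in WT and 95.8, 93.2 and 97.4 CPM in KO, without overlap, and did not pass the test (log2 fold change -0.28 ± 0.11, edgeR adjusted p = 0.0607). Xxylt1 went from 30.6 ± 1.70 in WT to 40.4 ± 0.630 CPM in KO (SD over 3 libraries each) and just missed the threshold (edgeR adjusted p = 0.0107, 0.00451 with the replicate block). Traf4, Hspa5 (the ER chaperone BiP) and Stc2 (stanniocalcin 2) did not pass it either, with edgeR adjusted p of 0.0137, 0.0998 and 0.270, of which the first pair passed with the replicate block (0.000401 and 0.00204).

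The largest rises among genes with members were those of Noct, Arl4a, A4galt and Gcnt1. Noct, which encodes the rhythmically expressed phosphatase nocturnin and held 2 members on each side of the stop codon, had 38.8, 33.0 and 32.8 CPM in WT and 550, 627 and 523 CPM in KO (log2 fold change 4.02 ± 0.13, edgeR adjusted p = 9.15e-08). Arl4a, a small GTPase with 3 members before the stop codon, went from 17.0 ± 2.66 to 91.5 ± 13.1 CPM (SD, n = 3 libraries each). A4galt, the synthase of the glycolipid Gb3, and Gcnt1, which branches O-glycans, rose by 2.34 ± 0.14 and 2.25 ± 0.13 on the log2 scale. Pdgfc, Basp1, Tmem37 and Mrm3 followed, with log2 fold changes of 1.97 to 2.10. Ranges that do not overlap were part of the rule that chose these 8.

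Among the largest falls were those of Lef1, Gpa33 and Cers4. Lef1, a transcription factor of the Wnt pathway with 1 member, had 34.1, 18.7 and 36.9 CPM in WT and 2.43, 2.50 and 2.88 CPM in KO (log2 fold change -3.52 ± 0.26, edgeR adjusted p = 1.16e-05). Gpa33, a cell surface antigen, had 69.4, 93.7 and 70.1 CPM in WT and 5.69, 8.47 and 6.21 CPM in KO. Cers4, a ceramide synthase with 4 members after the stop codon, fell by 2.84 ± 0.14 on the log2 scale. Klf12, Ndrg2, Palm3 and Aldh1l1 had log2 fold changes of -2.75 to -2.35, and Palm3, one of the genes that the study names, fell by 2.54 ± 0.15. Genes with 4 members were thus among both the largest rises and the largest falls.

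Of 21 genes of the m6A machinery, 10 held 14 members, and 4 of these 10 rose and 1 fell. Over the whole list 9 rose and 3 fell (57.1% called, beside 29.7% of all genes, 17.1% higher and 12.6% lower), with a median log2 fold change of 0.26 beside -0.02. Wtap, a subunit of the writer complex with 2 members before the stop codon, had 118, 113 and 119 CPM in WT and 299, 273 and 309 CPM in KO (log2 fold change 1.33 ± 0.10, edgeR adjusted p = 1.28e-05). Rbm15, which brings the writer to its targets, Ythdc1 and Cbll1 (Hakai, of the writer complex) rose by 0.94 ± 0.15, 0.84 ± 0.14 and 0.60 ± 0.11 on the log2 scale, and Igf2bp3, a proposed reader, fell by 0.74 ± 0.12.

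Of 22 genes of the exon junction complex and nonsense-mediated decay, 7 held 9 members, and over the list 1 rose and 5 fell (27.3%, near the 29.7% of all genes; median -0.16). The 6 genes that passed became 10 with the replicate block, 3 with scaling by library size only, and 3 without WT replicate 1, KO replicate 1 or KO replicate 3. Upf1, the decay helicase with 1 member after the stop codon, had 207, 198 and 197 CPM in WT and 128, 142 and 111 CPM in KO, and fell by 0.66 ± 0.11 on the log2 scale (edgeR adjusted p = 0.00115). Of 9 genes of translation termination and ribosome recycling, 3 held 5 members, and over the list 1 rose and 2 fell (33.3%, near the 29.7% of all genes; median -0.14), with 1 gene left without KO replicate 1 or 3. Abce1, the recycling ATPase, went from 521 ± 16.5 to 355 ± 15.3 CPM (SD, n = 3 libraries each; edgeR adjusted p = 0.00181, but 0.0128 and 0.0114 without KO replicate 1 and 3). Of 22 genes of 3′ end processing and poly(A) binding, 10 held 27 members, and over the list 2 rose and 9 fell (11 of 22 called, beside 29.7% of all genes; median -0.29), with 7 of the 11 left in number without KO replicate 1. Cstf1, a subunit of the cleavage stimulation factor with 4 members, rose by 0.87 ± 0.11 on the log2 scale, and Cpsf3, the endonuclease that cuts the pre-mRNA, fell by 0.61 ± 0.09. Papolg, a poly(A) polymerase, fell by 0.55 ± 0.11, a call that was lost with scaling by library size only (edgeR adjusted p = 0.0213) and without KO replicate 1 (0.0173) or 3 (0.0112).

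Of 20 pluripotency genes, 9 held 29 members, and over the list 2 rose and 6 fell (8 of 20 called, beside 29.7% of all genes; median -0.12). Klf2, with 4 members, had 97.8, 109 and 102 CPM in WT and 320, 352 and 272 CPM in KO, a log2 fold change of 1.61 ± 0.12 (edgeR adjusted p = 1.24e-05). Klf5, with 3 members, fell by 0.92 ± 0.14 on the log2 scale, with no overlap between 219 to 311 CPM in WT and 123 to 150 CPM in KO. Tfcp2l1, with 3 members, fell by 0.58 ± 0.13 (edgeR adjusted p = 0.00519), a call lost with scaling by library size only (0.0139) and without WT replicate 1 (0.0266), KO replicate 1 (0.0384) or KO replicate 3 (0.0274). Esrrb had 6 members, the most on this list, and, like Tbx3, is named here after its values were seen. It had a log2 fold change of 0.43 ± 0.11 that did not pass (edgeR adjusted p = 0.0106), but did with the replicate block (0.00191) and by DESeq2 (0.000505). Nanog and Tbx3, with 3 and 5 members, had log2 fold changes of -0.07 ± 0.12 and -0.04 ± 0.13.

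Among the other genes that the study names, Mif4gd (a protein with a MIF4G domain) and Hic2 (a transcriptional repressor) rose by 0.99 ± 0.11 and 0.91 ± 0.11 on the log2 scale (edgeR adjusted p = 8.32e-05 and 0.000167). Neither overlapped, with 38.9 to 45.6 CPM in WT and 78.4 to 87.3 CPM in KO for Mif4gd. Oat, Phb2, Nip7, Zfp710, Eif4ebp1 and Ccnt2 had log2 fold changes of -0.18 to 0.04 and overlapped.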

How the data were processed

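Sites came from the deposited lists of single bases with an m6Aboost score, which the authors made with STAR 2.7.3a, UMI-tools 1.0.0 and the classifier. The 2 heart lists differ in RNA input and were used by position only. Each site was placed on the longest coding transcript of its gene with GENCODE M21 (GRCm38) or, for human, 44 (GRCh38), which are other releases than the authors used. Intervals are Wilson 95% intervals. The authors aligned RNA-seq reads with STAR 2.6.1b and counted them per gene with HTSeq 0.12.4, and these deposited counts were tested with edgeR 4.0.16 (quasi-likelihood, TMM scaling, filterByExpr, R 4.3.3) on 15731 genes, with 0.01 as the highest adjusted p called. DESeq2 1.42.0 was an alternative. Lines that name no gene were left out, 17.6 to 22.6% without a feature, 13.9 to 15.2% not unique, 3.76 to 4.67% not aligned and 0.812 to 0.988% ambiguous. Deviations of WT and KO libraries with the same replicate number correlated at 0.122, 0.464 and 0.303, and those with unlike numbers at -0.342 to 0.110. The numbers, which come from the titles, were treated as pairs in a blocked alternative. For replicate 1 the pairing rests on little, since WT 3 with KO 1 gave the 0.110.

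The genes named are the 4 highest-scoring members on each side, the 6 in the stop codon, the 8 genes with most members, the 8 largest changes each way (called, mean count 100 or more, CPM ranges apart), list genes that were called, those named in the study, and the 6 highest-scoring mouse-human pairs. One gene that this rule names is not reported here. Members, lists and rules were chosen with earlier results of these data known. The scripts were tested on simulated data. Python 3.11.15, pandas 2.3.3, NumPy 2.4.6 and Matplotlib 3.10.9 were used.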

Additional observations from a re-analysis of the deposited data

How the results depend on the processing

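A window of 100 nt held 4309 members, 61.3% of them after the stop codon, and a window of 300 nt had 65.7% after it. With scores of at least 0.7, 71.6% lay after the stop codon, 34 members were in it, 7.05% of the DRACH motifs before and 13% after it were listed, 2.13% within 50 nt of the junction, 73.8% were shared with heart, and 39.6% of members before the stop codon matched a human site. Counting RRACH gave 14.6% before and 19.1% after, motifs of all genes tested 6.30% and 7.99%, and the 25% of genes highest in WT 13.6%, 18.8% and, near the junction, 5.29%. DRACH sites alone had median scores of 0.724 before and 0.816 after, and 68.0% were shared with heart. The smaller heart list shared 22.3%. The alternatives for the junction and for human sites were chosen after seeing the data.

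Of genes with members, 1796 passed an adjusted p of 0.05 (819 lower), and 287 were lower with scaling by library size only. With the replicate block, in which the pairing enters as a term, 1741 passed and 778 were lower. Leaving out 1 library gave 627 to 1373 changed, 408 to 837 higher and 219 to 536 lower, with a median log2 fold change of -0.00849 to 0.0451, negative without WT replicate 2. That median became 0.12 by library size, 0.0404 where each library needed 10 counts, and 0.0468 unfiltered. For the exon junction complex and decay list, 10 genes passed at 0.05 and with the block, 3 by library size, and 3 to 5 with a library left out. With a library left out, 1 to 3 termination genes and 7 to 13 genes of 3′ end processing passed. Of 871 values of named genes, 813 stayed on the same side of the threshold, 23 lost it and 35 gained it. A call reversed in 0 of them, and 12 genes that were not called changed sign in at least 1 alternative. The cause of these shifts was not tested.

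Low counts limited the stop codon shares, and the site lists carry no depth, so an unlisted motif is not shown to be unmethylated.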
